A study of Mus musculus with 9 samples.

Results

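The genes described here are 10 transcriptional targets of the coactivators YAP and TAZ, followed across 9 whole pancreatic tumors of the KPC mouse. They were taken by symbol from the deposited table of estimated counts, in which all 10 were found among 54453 gene rows: Ccn1 and Ccn2 (also named Cyr61 and Ctgf), Axl, Nt5e, Crim1, Ankrd1, Myof, F3, Ajuba and Ptpn14. KPC mice carry altered Trp53 in the pancreas and develop ductal adenocarcinoma. The 9 tumors share this background. In 4 of them Scrib, which encodes a scaffold of apical-basal polarity, was labelled WT (KPF/+C; tumors 2, 3, 6 and 9), and in 5 it was labelled null (KPF/+CSF/F; tumors 7, 14, 15, 18 and 23). The labels give neither the Cre driver nor the age or treatment of the mice. They do not tie each tumor to its own animal, and p-values therefore reflect how these 9 tumors vary. All 10 genes of an epithelium list (Epcam, Cdh1, keratins and others) were detected, with a summed level of 6966 to 10222 CPM (counts per 1000000 counts of the scaled library) in the WT and 6313 to 10237 CPM in the null tumors.

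YAP and TAZ (encoded by Yap1 and Wwtr1) are held in the cytoplasm when the Hippo kinases phosphorylate them. When free, they enter the nucleus and bind DNA through TEAD factors, often beside AP-1. Scribble is known as a membrane scaffold that helps Hippo kinases act on TAZ, so target genes are a usual readout after its loss. The targets are not specific to 1 cell type. From background knowledge, 5 were assigned to the stroma, where fibroblasts, vessels or macrophages are known to express them (Ccn1, Ccn2, Axl, Nt5e and Crim1), and 5 to epithelial cells (Ankrd1, Myof, F3, Ajuba and Ptpn14). Tumor cells can express any of them, and in whole tumors fewer cells of a type and less RNA per cell cannot be told apart. The members and their classes were chosen with earlier results of these data known.

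Promoter sequence is shown because YAP and TAZ reach DNA through TEAD factors. RefSeq promoters (GRCm38.p6) matched 9 of the 10 members, and that of Ccn2 was not searched. In these 9 the 250 bases before the RefSeq start of transcription were searched for the TEAD core GGAATG on both strands (CATTCC on the other). It was present in 6 of these 9 promoters, those of Ccn1, Axl, Crim1, Ankrd1, Ajuba and Ptpn14, against 12.6% of all 32851 listed starts. The 2 promoters with a pair of matches were those of Ankrd1 and Ajuba, and 1.02% of all starts had 2 or more. The AP-1 letters TGANTCA, which read the same on both strands and overlap no TEAD match here, were present in the F3 promoter alone of the 9, as a pair, and in 6.75% of all starts. Neither was in the windows before Nt5e and Myof. The windows of Ankrd1 and Nt5e lie inside the gene spans given below, which come from GENCODE. Their starts therefore differ between the annotations. A match describes letters and is not a site of binding. Printed 5′ to 3′ on the strand of the gene, with the last base next to the start, the promoter of Ccn1 (chr3:145649986-145650235, minus strand), both promoters with paired TEAD matches (Ankrd1, chr19:36119845-36120094, minus strand, and Ajuba, chr14:54577662-54577911, minus strand) and that of F3 (chr3:121723287-121723536, plus strand) read as follows, with capitals for the TEAD letters in the first 3 and for the AP-1 letters in F3.
Ccn1: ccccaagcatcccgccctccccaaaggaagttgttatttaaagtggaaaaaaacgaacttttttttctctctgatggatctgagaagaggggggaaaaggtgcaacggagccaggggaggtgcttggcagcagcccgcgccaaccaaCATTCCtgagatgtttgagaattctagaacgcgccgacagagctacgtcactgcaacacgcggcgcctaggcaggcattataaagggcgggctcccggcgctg
Ankrd1: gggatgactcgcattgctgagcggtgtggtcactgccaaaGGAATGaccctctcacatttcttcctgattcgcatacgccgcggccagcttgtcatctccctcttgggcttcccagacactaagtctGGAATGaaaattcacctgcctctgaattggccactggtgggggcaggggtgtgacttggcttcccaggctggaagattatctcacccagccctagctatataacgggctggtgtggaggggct
Ajuba: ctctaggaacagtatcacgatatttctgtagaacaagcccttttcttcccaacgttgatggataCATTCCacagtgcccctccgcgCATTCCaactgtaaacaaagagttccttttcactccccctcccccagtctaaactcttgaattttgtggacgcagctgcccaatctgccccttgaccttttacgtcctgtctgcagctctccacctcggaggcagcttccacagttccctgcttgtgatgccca
F3: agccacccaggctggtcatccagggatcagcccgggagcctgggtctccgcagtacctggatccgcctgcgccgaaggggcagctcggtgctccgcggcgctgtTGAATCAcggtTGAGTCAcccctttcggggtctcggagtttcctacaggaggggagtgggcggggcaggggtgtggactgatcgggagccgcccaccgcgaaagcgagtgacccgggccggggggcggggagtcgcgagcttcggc
The matches began 103 bases before the start in Ccn1, 210 and 123 in Ankrd1, 186 and 164 in Ajuba and 146 and 135 in F3.

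Estimated counts summed to between 10145830 and 26502285 in the WT and between 19281212 and 27596832 in the null tumors, and the members were at 9 CPM or more in every tumor. Scrib mRNA was checked first. It had 88.5, 44.1, 62.0 and 87.4 CPM in WT tumors 2, 3, 6 and 9, and 102, 53.8, 55.4, 53.2 and 36.9 CPM in null tumors 7, 14, 15, 18 and 23. The groups overlapped (log2 fold change -0.23, SE 0.31, edgeR adjusted p = 0.712), so every direction below is between tumors as labelled. A pair of libraries stood apart. Tumor null 7 had a summed fibroblast level of 376 CPM against 2245 to 9550 CPM in the WT tumors. The share of counts in the top 100 genes was 32.5% in WT 3 and 18.8% to 25.8% elsewhere. Transcripts of Xist and Y-linked genes gave tumors WT 3, null 7 and null 18 as male. Mitochondrial transcripts took 0.83% to 3.06% of counts.

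None of the 10 targets passed the test between null and WT tumors. All 10 passed the filter on low counts, and in edgeR's quasi-likelihood test their Benjamini-Hochberg adjusted p ran from 0.243 to 0.832, where 0.0124% of the 16169 genes tested were called. The highest fitted folds were those of Ankrd1, a nuclear ankyrin-repeat protein, and Myof, a membrane-repair ferlin, at 3.22 and 2.01. The lowest were those of the ectonucleotidase Nt5e and the matricellular Ccn2, at 0.56 and 0.58. The log2 fold change was positive for 6 members and negative for 4, with a median of 0.20, beside a median of -0.035 and 47.8% positive over all genes tested. For members assigned to epithelium 4 of 5 were positive, with a median of 0.52, and for those assigned to stroma 2 of 5, with a median of -0.19. These medians moved when 1 tumor was left out. The epithelial median was 0.25 without WT 3 and 0.97 without WT 2, the stromal one 0.011 without WT 2 and -0.47 without null 18, and that of all 10 members -0.0036 without WT 3. At an unadjusted p under 0.05 there were 2 of 10 members, near the 17.7% of all genes in either direction. Both were higher, as were 7.64% of all genes, and 10% were lower. In 0 of 10 members were the groups fully apart, beside 6.91% of all genes. DESeq2 also called 0 of the 10, and 3.91% of all genes. Without both WT 3 and null 7 edgeR called 0 of the 10 as well.

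**Figure D1:**
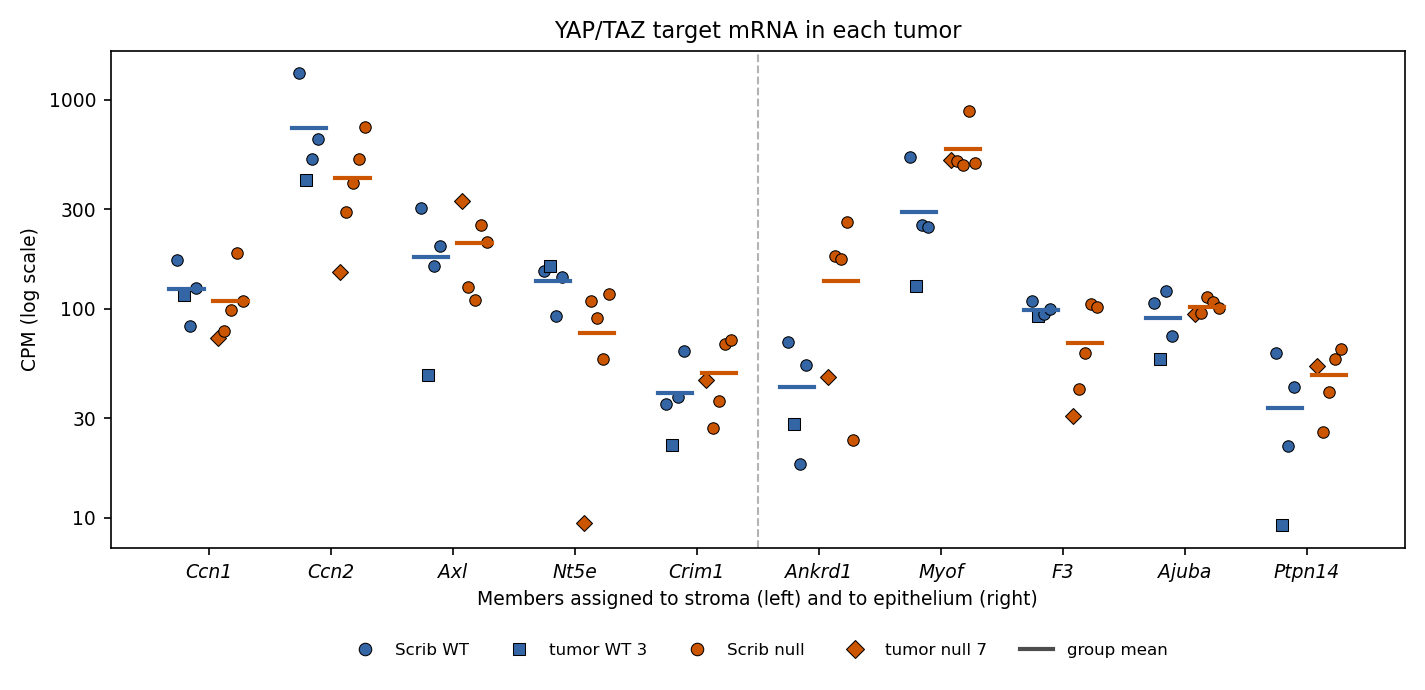
CPM of the 10 targets (log axis) in each tumor, WT in blue and null in orange, with bars at the group means, squares for tumor WT 3 and diamonds for null 7. The groups overlap for every gene. The lowest points are Ptpn14 in WT 3, at 9.19 CPM, and Nt5e in null 7, at 9.44 CPM.

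Per length of annotated exon, Ccn2 was the most abundant target, at 522 ± 366 TPM (transcripts per 1000000; SD, n = 9), and was above Ccn1, at 150.3 ± 66.9 TPM, in 9 of 9 tumors. Ccn1 was above the next gene, Axl (103 ± 52.0 TPM), in 8 of 9. Axl, Myof (97.1 ± 54.8), Ankrd1 (89.7 ± 87.2), F3 (84.2 ± 36.9) and Ajuba (69.6 ± 20.2 TPM) had no fixed order, each being above the next in 4 to 6 of 9 tumors. Below them stood Nt5e (30.8 ± 14.7 TPM), then Crim1 (20.2 ± 10.4 TPM), which Nt5e exceeded in 7 of 9 tumors, and Ptpn14 (8.52 ± 4.61 TPM), below Crim1 in 9 of 9. Orders of tumors within a gene are given below in CPM and can differ in TPM, which scales the libraries otherwise.

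Ccn1 and Ccn2 encode secreted matricellular proteins that bind integrins and growth factors and are the targets most used to read YAP activity. Ccn2 (ENSMUSG00000019997, chromosome 10, 24595442 to 24598683, GRCm38) had 1337, 411, 523 and 649.7 CPM in WT tumors 2, 3, 6 and 9. In null tumors 7, 14, 15, 18 and 23 it had 149, 291, 401, 522 and 737 CPM. Its highest value was in WT 2 and its lowest in null 7. Null 7, 14 and 15 were below every WT tumor, and null 18 and 23 lay within the WT range. In TPM only null 7 was below every WT tumor, with WT 3 at 229, null 14 at 274 and null 15 at 392 TPM. The means were 730.2 ± 416 CPM (SD, n = 4) and 420.1 ± 224 CPM (SD, n = 5), with a log2 fold change of -0.80 (SE 0.47, edgeR adjusted p = 0.377) and a 95% interval from 0.28-fold to 1.18-fold. Without WT 2 it was -0.32. A noncoding transcript, Gm15270, overlaps Ccn2 on the other strand (for strand-aware counting no source used here gives an answer).

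Ccn1 (ENSMUSG00000028195, chromosome 3, 145646976 to 145649981) varied less. Its values were 172, 116, 83.0 and 126 CPM in WT tumors 2, 3, 6 and 9 and 72.8, 78.2, 98.3, 185 and 109 CPM in null tumors 7, 14, 15, 18 and 23. Null 18 was above every WT tumor and null 7 and 14 below every one. In TPM only null 7 was below every WT tumor, and the means were 148 TPM in WT and 152 TPM in null. The log2 fold change was -0.19 (SE 0.31, edgeR adjusted p = 0.758; 95% interval 0.54-fold to 1.41-fold), and 0.011 without WT 2.

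Nt5e (ENSMUSG00000032420, chromosome 9, 88327197 to 88372092) encodes CD73, the cell-surface enzyme that turns AMP into adenosine. It had 152, 161, 92.2 and 141 CPM in WT tumors 2, 3, 6 and 9, and 9.44, 109, 90.4, 57.8 and 118 CPM in null tumors 7, 14, 15, 18 and 23. All 5 null tumors were below the WT mean of 137 ± 30.6 CPM (SD, n = 4), and null 7 held the least by a wide margin. In TPM null 23, at 43.3 TPM, was above the WT mean of 37.0 TPM. The log2 fold change was -0.83 (SE 0.54, edgeR adjusted p = 0.419; 95% interval 0.25-fold to 1.28-fold), and -0.53 without null 7.

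F3 (ENSMUSG00000028128, chromosome 3, 121723537 to 121735048), tissue factor, starts the clotting cascade. In CPM the WT tumors lay close together, at 108, 92.4, 94.0 and 100.03 CPM. The null tumors had 30.8, 41.2, 61.4, 106 and 102 CPM in the order 7, 14, 15, 18 and 23, so that 3 lay below every WT tumor and 2 within their range. In TPM the WT tumors were wider apart, at 121, 58.2, 80.3 and 110 TPM. Null 15, at 68.0 TPM, was then above WT 3, and null 23, at 127 TPM, above every WT tumor. The log2 fold change was -0.53 (SE 0.35, edgeR adjusted p = 0.422; 95% interval 0.41-fold to 1.18-fold), and -0.33 without null 7.

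Ankrd1 (ENSMUSG00000024803, chromosome 19, 36111961 to 36120099) encodes a nuclear cofactor first known from striated muscle and is a direct YAP target in many epithelial cells. It had 69.4, 28.1, 18.0 and 54.0 CPM in WT tumors 2, 3, 6 and 9. In null tumors 7, 14, 15, 18 and 23 it had 47.0, 179, 174, 259 and 23.6 CPM. Tumors null 14, 15 and 18 were above every WT tumor, while null 7 and null 23 lay within the WT range. The means were 42.4 ± 23.6 CPM (SD, n = 4) and 137 ± 98.8 CPM (SD, n = 5), with a log2 fold change of 1.69 (SE 0.67, edgeR adjusted p = 0.247) and a 95% interval from 1.16-fold to 8.97-fold, which is not adjusted for the number of genes. Of 8 skeletal muscle markers 2 passed the filter. All 8 summed to 2.56 to 16.7 CPM in the WT and 1.68 to 2.83 CPM in the null tumors. The highest sum was in WT 3, where Acta1 had 11.9 CPM. Counting limits values this low, and a part of muscle in the Ankrd1 values was not tested.

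Myof (ENSMUSG00000048612, chromosome 19, 37899036 to 38043577) encodes myoferlin, which acts in membrane repair and receptor recycling. It had 531, 128, 251 and 246 CPM in WT tumors 2, 3, 6 and 9 and 517, 509, 488, 887 and 497 CPM in null tumors 7, 14, 15, 18 and 23. All 5 null tumors were above 3 of the WT tumors, and in CPM WT 2 was above every null tumor except null 18. In TPM null 23, at 125 TPM, was also above WT 2, at 119 TPM. The means were 289 ± 171 and 579.7 ± 172 CPM, with a log2 fold change of 1.005 (SE 0.39, edgeR adjusted p = 0.243; 95% interval 1.10-fold to 3.64-fold, not adjusted for the number of genes). Without WT 2 it was 1.48 (edgeR adjusted p = 0.138).

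Axl (ENSMUSG00000002602, chromosome 7, 25757273 to 25788705) encodes a receptor tyrosine kinase for the ligand Gas6, known in mesenchymal-like tumor cells and in macrophages. It had 304, 48.0, 159.6 and 199 CPM in WT tumors 2, 3, 6 and 9 and 329.6, 128, 110.2, 252 and 209 CPM in null tumors 7, 14, 15, 18 and 23. The highest CPM was in null 7, the tumor with the least fibroblast RNA, and the lowest in WT 3. In TPM the highest value was in WT 2, at 171 TPM, with null 7 at 155 TPM. The log2 fold change was 0.21 (SE 0.48, edgeR adjusted p = 0.832; 95% interval 0.55-fold to 2.42-fold). Its sign turned without WT 3 (-0.062), and without both WT 3 and null 7 (-0.30).

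Crim1 (ENSMUSG00000024074, chromosome 17, 78200248 to 78376592), a transmembrane protein that binds BMPs, had 35.0, 22.4, 38.0 and 62.7 CPM in the WT tumors and 45.6, 27.0, 36.1, 67.5 and 70.7 CPM in the null tumors, in the same order. Only null 18 and null 23 were above every WT tumor (log2 fold change 0.32, edgeR adjusted p = 0.638; 95% interval 0.72-fold to 2.15-fold). With each tumor left out the log2 fold change ran from 0.15 (without null 23) to 0.64 (without WT 9). The gene overlaps Fez2 on the other strand and a miRNA gene, Gm25069, on its own.

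Ajuba and Ptpn14 act back on the pathway. Ajuba, a LIM protein of cell junctions, restrains LATS kinases, and Ptpn14, a phosphatase, binds YAP and holds it out of the nucleus. Ajuba (ENSMUSG00000022178, chromosome 14, 54567472 to 54577558) was the steadiest target, with 107, 57.2, 122 and 74.2 CPM in the WT tumors and 94.0, 94.98, 114, 108 and 100.4 CPM in the null tumors. In CPM all null values lay inside the WT range (log2 fold change 0.18, edgeR adjusted p = 0.683, 95% interval 0.80-fold to 1.62-fold). In TPM null 15, 18 and 23, at 87.1, 85.5 and 87.0 TPM, were above the highest WT value, 82.6 TPM in WT 2. With each tumor left out the log2 fold change of Ajuba ran from 0.055 (without WT 3) to 0.37 (without WT 6). Ptpn14 (ENSMUSG00000026604, chromosome 1, 189728268 to 189876695) had 61.2, 9.19, 22.0 and 42.4 CPM in the WT tumors and 53.1, 25.9, 39.8, 57.5 and 64.5 CPM in the null tumors. The groups overlapped and WT 3 was lowest (log2 fold change 0.52, edgeR adjusted p = 0.566; 95% interval 0.69-fold to 2.96-fold). Without WT 3 the log2 fold change was 0.25, and without WT 2 it was 0.97. It overlaps the antisense gene Gm26574 and, on its own strand, the pseudogene Gm30280.

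**Figure D2:**
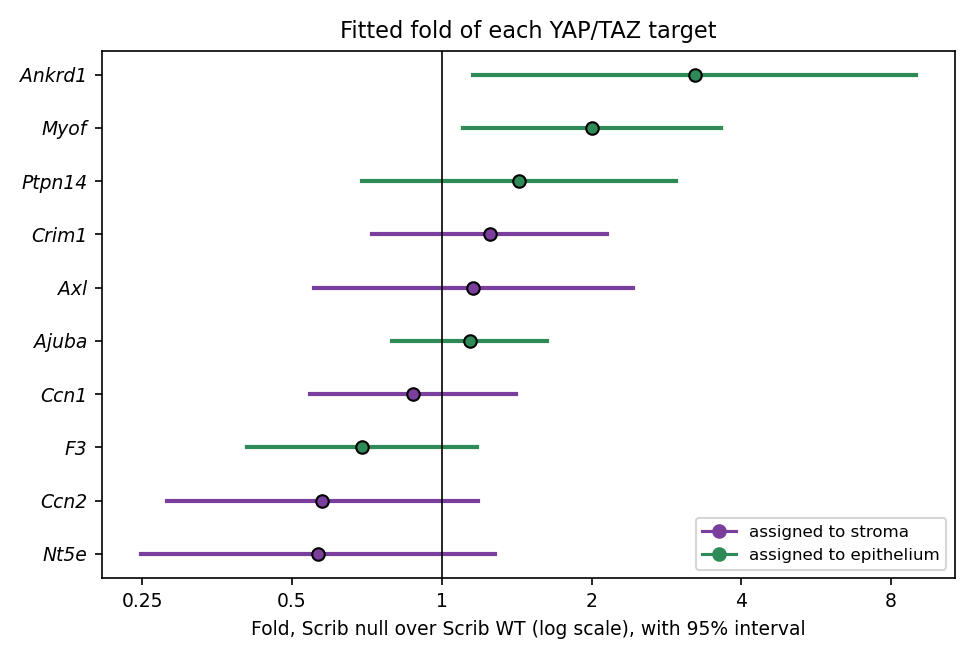
Fitted fold, null over WT (log axis), of the 10 targets with its unadjusted 95% interval, in purple for members assigned to stroma and green for those assigned to epithelium. The intervals of Ankrd1 (1.16 to 8.97) and Myof (1.10 to 3.64) lie above 1, and the other 8 include 1.

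The members differed in which tumor held the least of them. Ccn1, Ccn2, Nt5e and F3 were lowest in null 7, 3 of them assigned to stroma and 1 to epithelium. Axl, Crim1, Myof, Ajuba and Ptpn14 were lowest in WT 3, and Ankrd1 in WT 6. The SD of log2 CPM within groups was above the median of genes of like abundance (within 0.5 on the log2 scale) for 9 of 10 members. It was 1.26 for Ankrd1 and 1.16 for Nt5e, above that of 98.1% and 97.4% of such genes. It was above that of 94.98% for Axl, 93.2% for Ptpn14, 87.9% for Ccn2, 81.0% for Crim1, 80.8% for F3, 74.7% for Myof and 67.0% for Ccn1. Ajuba, at 0.34, was above 36.0%. Single tumors stood lowest in several of these, null 7 for Nt5e and WT 3 for Axl and Ptpn14.

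Markers of stromal cells had lower values in the null tumors, and their part in the differences of the targets was not tested beyond the fits that follow. All 10 fibroblast markers had negative fold changes, as did 8 of 8 endothelial, 9 of 9 macrophage and 7 of 8 pericyte and smooth muscle markers, and 0 passed the adjusted test. Summed fibroblast CPM was 2245 to 9550 in the WT and 376 to 4595 in the null tumors. Macrophage markers summed to 1022 to 1958 and 687 to 1192 CPM, endothelial markers to 226 to 491 and 51.4 to 258 CPM, and pericyte and smooth muscle markers to 256 to 517 and 76.0 to 322 CPM. Mesothelial markers (371 to 1516 and 244 to 648 CPM) had 4 of 7 members below 0. Most of this sum was Msln, at 337 to 1493 CPM in the WT and 236 to 595 CPM in the null tumors. No other gene of that list was above 33.5 CPM, the value of Upk3b in null 15. Of the epithelium markers 7 of 10 were above 0. Acinar markers spanned 0.998 to 472 CPM in the WT and 0.71 to 309.6 CPM in the null tumors.

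**Figure D3:**
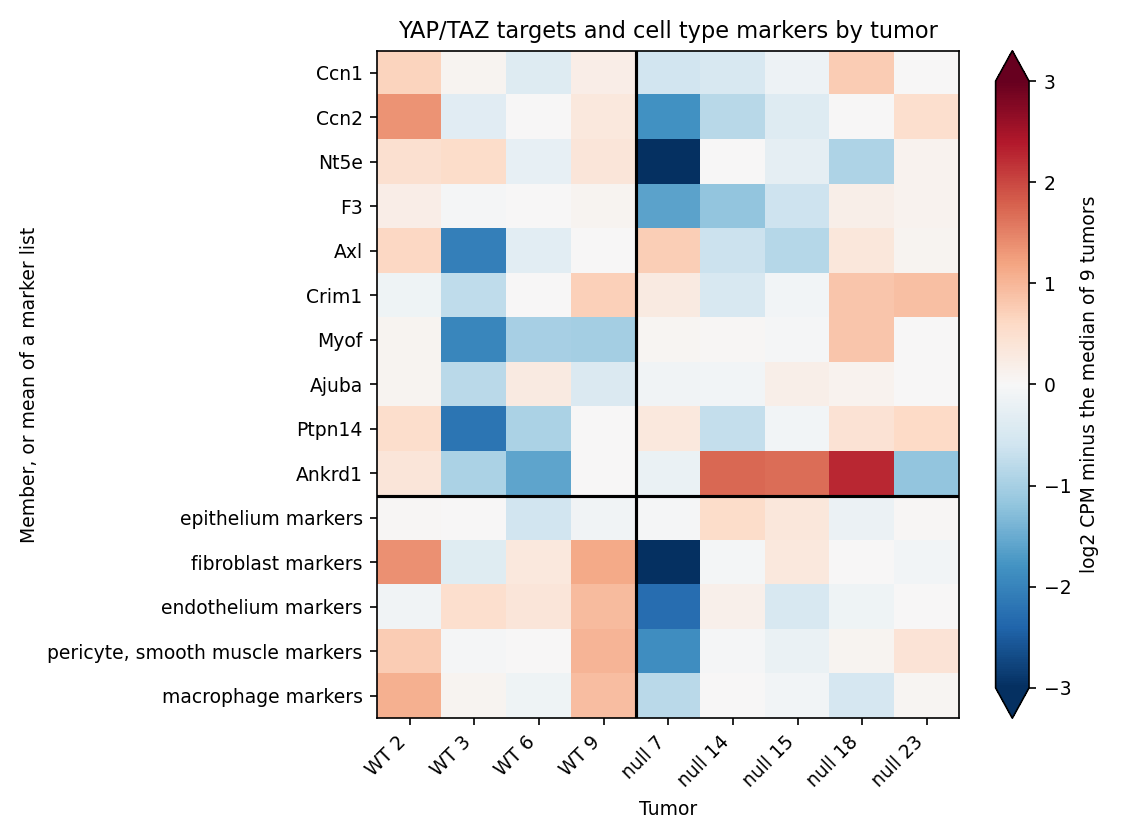
Log2 CPM of each target and mean log2 CPM of 5 marker lists, minus the median of the 9 tumors, by tumor (colours end at 3 units either way). Null 7 is lowest in Ccn1, Ccn2, Nt5e and F3 and in the fibroblast, endothelium, pericyte and smooth muscle, and macrophage rows. WT 3 is lowest in Axl, Crim1, Myof, Ajuba and Ptpn14.

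With the fibroblast level as a term in the edgeR fit, the 4 negative fold changes moved toward or past 0, that of Axl went from 0.21 to 0.052, the other 5 moved further above 0, and no member passed. The log2 fold change of Ccn2 went from -0.80 to -0.095 (SE 0.38, edgeR adjusted p = 0.901), that of Nt5e from -0.83 to -0.32 (SE 0.42, edgeR adjusted p = 0.675), that of F3 from -0.53 to -0.19 and that of Ccn1 from -0.19 to 0.088. Ankrd1 went from 1.69 to 2.41 (SE 0.65, edgeR adjusted p = 0.190), Myof from 1.005 to 1.32 (SE 0.45, edgeR adjusted p = 0.204) and Ptpn14 from 0.52 to 0.79. The median of the 5 members assigned to stroma went from -0.19 to 0.052, and that of the 5 assigned to epithelium from 0.52 to 0.79. With the macrophage level as a term Ccn2 was at 0.11, Nt5e at -0.16, Ccn1 at 0.12, Ankrd1 at 2.69 and Ptpn14 at 1.38. With the epithelium level they were -0.82 for Ccn2, -1.32 for Nt5e and 1.45 for Ankrd1. These levels come from the same libraries as the targets and differ between the groups, so what they take up of the genotype cannot be told apart.

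Across the 9 tumors each target was set against the epithelium level and the fibroblast level (mean log2 CPM of the list), 20 relations in all, and 0 passed after Benjamini-Hochberg adjustment. The 3 with an unadjusted exact permutation p under 0.05 were all with the fibroblast level. Pearson's r was 0.86 for Ccn2 (exact permutation p = 0.00478, adjusted p = 0.0955; Spearman's coefficient 0.63, exact permutation p = 0.0760, adjusted p = 0.987). For Nt5e r was 0.89 (exact permutation p = 0.0245, adjusted p = 0.172; Spearman's coefficient 0.27, p = 0.493, adjusted p = 0.987). For F3 r was 0.75 (exact permutation p = 0.0258, adjusted p = 0.172; Spearman's coefficient 0.58, p = 0.108, adjusted p = 0.987). Without null 7 and WT 2, the tumors farthest from the median level, r was 0.39, 0.085 and 0.17 over a narrower range of the level, so none of the 3 relations held without both. Without null 7 alone r was 0.71 for Ccn2 (exact permutation p = 0.0496, adjusted p = 0.496) and 0.32 for both Nt5e and F3, and without WT 2 alone it was 0.84, 0.89 and 0.72. For Axl r with the fibroblast level was -0.13 (exact permutation p = 0.717, adjusted p = 0.959; Spearman's coefficient 0.05, p = 0.912), and 0.60 without null 7 (exact permutation p = 0.115, adjusted p = 0.669). For Crim1, also assigned to stroma, it was 0.019 (exact permutation p = 0.967, adjusted p = 0.987). F3, assigned to epithelium, had r = -0.48 with the epithelium level (exact permutation p = 0.200, adjusted p = 0.666). Without null 7 that r was -0.76 (exact permutation p = 0.0300, adjusted p = 0.496). As 0 relations passed, they do not bear out the assigned classes. The strongest relation with the epithelium level was that of Ankrd1 (r = 0.58, exact permutation p = 0.0997, adjusted p = 0.424; Spearman's coefficient 0.30, p = 0.437, adjusted p = 0.987), with r = 0.12 without WT 6 and null 14 and r = 0.84 without null 18 (exact permutation p = 0.00588, adjusted p = 0.0734). Centred on the mean of each group, r with the fibroblast level was 0.81 for Ccn2, 0.85 for Nt5e and 0.66 for F3, and r of Ankrd1 with the epithelium level was 0.42, given here with no test.

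**Figure D4:**
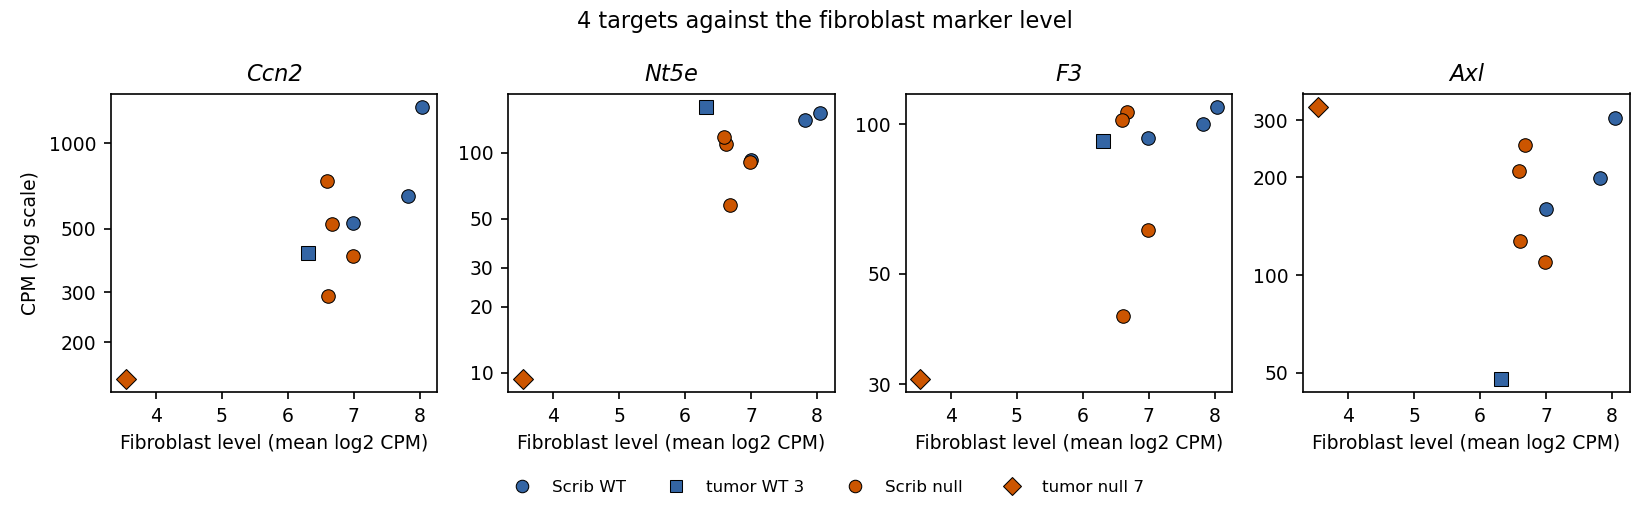
CPM (log axis) of Ccn2, Nt5e, F3 and Axl in each tumor against the fibroblast level, the mean log2 CPM of 10 markers. Null 7 (diamond), at a level of 3.54 against 6.31 to 8.04 in the other tumors, holds the least Ccn2, Nt5e and F3 and, in CPM, the most Axl.

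The tested genes whose log2 CPM was most like each target over the 9 tumors were drawn from 12257 genes, so the values of r are high by selection and carry no test. For Nt5e they were Icosl (r = 0.98), Pram1 (0.97) and the endothelial receptor Kdr (0.97), a marker used above. For Ccn2 they were Ttc12 (0.99), Cep85l (0.98) and Tnip2 (0.98), and for Ccn1 Pcdh18 (0.94), Kctd20 (0.93) and Aatk (0.91). F3 was most like the integrin Itga1 (0.94), Fam43a (0.93) and Speg (0.93). Axl was most like Zgpat (0.96), epiplakin, Eppk1 (0.95), and Trp53inp1 (0.95), and Crim1 like Exph5 (0.95), Sgtb (0.93) and Tceanc2 (0.92). Ankrd1 was most like the neurotrophin Bdnf (0.96), Dynap (0.94) and Neurl4 (0.93). Myof was most like Pitpnm3 (0.98), Ncs1 (0.97) and Fam102b (0.97), Ptpn14 like Kdm4a (0.99), Mtss1l (0.99) and Fbxl20 (0.98), and Ajuba like Brd3os (0.92), Slc25a30 (0.91) and the annexin Anxa3 (0.91).

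Other targets were split in direction too. Of 13 further genes of a widely used YAP/TAZ signature, 7 had positive and 6 negative fold changes, and 0 passed. Their median was 0.065 (0.70 with the fibroblast level as a term), and -0.17 to 0.96 across 23 alternative fits. The 4 with the smallest p were Asap1, an Arf GTPase-activating protein (54.5 ± 27.2 CPM in WT, 121 ± 43.3 CPM in null, log2 fold change 1.15, edgeR adjusted p = 0.226), the mesenchymal transcription factor Foxf2 (4.16 ± 5.79 and 0.73 ± 0.49 CPM, -2.48, edgeR adjusted p = 0.233; -0.84 without WT 2, which had 12.7 CPM against 0.38 to 2.78 CPM in the other WT tumors), the exchange factor Arhgef17 (67.2 ± 42.6 and 121 ± 29.1 CPM, 0.85, edgeR adjusted p = 0.305) and Igfbp3 (768 ± 232 and 415 ± 251 CPM, -0.89, edgeR adjusted p = 0.359). Of 18 other reported targets 7 were positive and 11 negative, and 0 passed. Their median was -0.022, and -0.11 to 0.61 across the 23 alternative fits. Here the 4 were the tetraspan protein Emp2 (79.8 ± 27.8 and 161 ± 77.7 CPM, log2 fold change 1.01), the secreted Fstl1 (486 ± 169 and 208 ± 102 CPM, -1.22), the actin bundler Fscn1 (126 ± 58.6 and 191 ± 68.4 CPM, 0.60) and the adaptor Dab2 (69.3 ± 52.0 and 43.7 ± 13.3 CPM, -0.67, and -0.30 without WT 2), with edgeR adjusted p from 0.228 to 0.489. Thbs1 and Gas6, the ligand of Axl, were among the rest.

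Genes upstream of the targets mostly had positive fold changes. Of 9 YAP, TAZ, TEAD and angiomotin genes 9 were positive, with a median log2 fold change of 0.52. Of 13 Hippo kinase cascade genes 12 were positive, with a median of 0.23, beside 47.8% positive over all genes tested. Again 0 of either passed. WT 3 held the least of Wwtr1, Tead1, Vgll4 and Amotl1, but not of Yap1, Amot or Tead4. It also held the least of most cascade genes, among them Wwc1, Taok1 and Taok2. The part of WT 3 in the medians of these lists was not tested. Amot, an angiomotin that binds YAP, was the 1 of these 22 whose groups did not overlap, beside 6.91% of all genes, at 16.4 ± 4.21 CPM in WT and 35.6 ± 15.4 CPM in null (log2 fold change 1.12, edgeR adjusted p = 0.208; DESeq2 adjusted p = 0.0438). Its paralog Amotl1 had 65.5 ± 40.9 and 131 ± 38.9 CPM (1.002, edgeR adjusted p = 0.246), Yap1 90.0 ± 9.38 and 121 ± 25.1 CPM (0.42, edgeR adjusted p = 0.304) and Tead4 12.4 ± 0.94 and 17.7 ± 5.28 CPM (0.52, edgeR adjusted p = 0.337). In the kinase cascade the smallest p were those of Wwc1 (0.91), Wwc2 (0.55), Taok1 (0.72) and Taok2 (0.31), with edgeR adjusted p from 0.25 to 0.514.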

How the data were processed

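The authors deposited 1 table of estimated counts per Ensembl gene for the 9 tumors, made from polyA RNA of frozen whole tumors per the labels' protocols. The submitters' processing notes name Salmon 1.4.0, DESeq 2 and the builds GRCm38 and mm10. The annotation release and strand setting are not given in the sources used here. Symbols, coordinates and exon lengths came from GENCODE M21 (GRCm38), which matched 54200 of 54453 rows.

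Estimated counts were rounded to whole numbers, moving none by more than 0.5. Genes were filtered with filterByExpr (minimum count 10, minimum total 15) and tested with edgeR 4.0.16 (quasi-likelihood, TMM, no covariate, R 4.3.3) in a fit over all 16169 genes kept, with a threshold of 0.05 on the Benjamini-Hochberg adjusted p. DESeq2 1.42.0, limma 3.58.1 (voom), other scalings and filters, marker levels, sex or identifier range as a term, and tumors left out were alternatives. The SE is the log2 fold change divided by the root of F, and 95% intervals use it. CPM is over the TMM-scaled library, log2 CPM has a prior count of 2, and TPM divides by the union of annotated exons, which can exceed the transcript present. Salmon shares reads among similar transcripts. The fit was tested on simulated data. Total counts ran from 10145830 to 27596832, and the common biological coefficient of variation was 0.494.

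The members and gene lists were chosen with earlier results of these data known. Named were Scrib, the 10 members, the 4 genes of smallest p in each of 4 pathway lists, and the 3 genes most like each member among those of mean log2 CPM of at least 1. The groups share no tumor number. Some items are not reported here.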

Additional observations from a re-analysis of the deposited data

Results flagged for a closer look

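Each member was checked in each group for a tumor standing far from the others, 20 checks in all, of which chance flags about 1. Tumor null 7 had 9.44 CPM of Nt5e against 57.8 to 118 CPM in the other null tumors. Tumor null 18 had 887 CPM of Myof against 488 to 517 CPM in the other null tumors. Null 7 also had the lowest fibroblast level, 3.54 log2 CPM. Without null 18 the log2 fold change of Myof was 0.80 (edgeR adjusted p = 0.407).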

How the results depend on the processing

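Of 230 values of the 10 members under 23 alternatives, 224 kept their direction and their side of the threshold and 6 changed sign, with 0 calls in any. The sign of Ccn1 turned with the fibroblast (0.088) or macrophage (0.12) level as a term and without WT 2 (0.011; -0.47 to 0.011 with each tumor left out), that of Ccn2 with the macrophage level (0.11), and that of Axl without WT 3 (-0.062; -0.062 to 0.60 with each tumor left out) or without both WT 3 and null 7 (-0.30); the cause was not tested. Across alternatives the log2 fold change of Ankrd1 ran from 1.28 to 2.69 (adjusted p from 0.0898 to 0.482) and that of Myof from 0.80 to 1.48 (0.0986 to 0.454). Of 390 values of Scrib and the 16 named pathway genes, 386 kept direction and side. Foxf2 turned with the macrophage level (0.53), Dab2 with the fibroblast (0.14) and macrophage (0.97) levels, and Amot passed in DESeq2 (adjusted p = 0.0438). Over all genes, 0 were called higher and 2 lower. Calls higher and lower were 1 and 6 with no filter, 239 and 394 in DESeq2, 1 and 5 in limma-voom and 2 and 1 with the macrophage level. There was 1 lower call with the epithelium level, the acinar level or sex as a term, and 0 with the fibroblast level, with the identifier range or without both WT 3 and null 7. With each tumor left out, 0 were called higher and 0 to 1 lower. Upper quartile scaling moved the median of all genes from -0.035 to -0.13, and 0 members changed sign. None of the 20 relations to marker levels passed in any alternative (smallest adjusted p 0.0501). No paired analysis was possible because the groups share no tumor number. Every member had 9 CPM or more in every tumor, while the acinar and skeletal muscle markers summed to as little as 0.71 and 1.68 CPM, where counting limits them.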
